A study of Mus musculus with 31 samples.

Results

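The mesothelial genes described here are Wt1, Msln, Upk3b, Upk1b, Lrrn4 and Muc16, taken by name as 6 of the 38283 rows of each expression table. Each name matched 1 row, so all 6 members were found. The RNA came from pancreatic cells of C57BL/6 mouse pups on postnatal day 2, separated by flow cytometry into YFP+ cells, labelled mesenchymal, and YFP- cells, labelled non-mesenchymal. Every group, controls included, carried Nkx3.2Cre, a Cre recombinase under the control of Nkx3.2, which is active in the mesenchyme around the developing foregut. The YFP+ gate therefore follows the Cre lineage and was not set on a mesothelial or a mesenchymal protein.

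In the H19DMD model, controls were H19DMD+/+; Nkx3.2+/Cre and mutants were H19DMDfl/+; Nkx3.2+/Cre, with a Cre-dependent deletion at the differentially methylated domain that controls the imprinted genes H19 and Igf2. This model gave 3 control and 4 mutant libraries of YFP+ cells and 3 control and 4 mutant libraries of YFP- cells. In the Igf2 model, controls were Igf2+/+; Nkx3.2Cre/+ and mutants were Igf2+/fl; Nkx3.2Cre/+, and 4 control and 3 mutant libraries of YFP- cells were analysed. The other 10 of the 31 samples, among them all YFP+ cells of the Igf2 model, were not analysed here. The labels do not say whether the libraries of a group came from separate animals, so each p-value measures only the spread between these libraries, which may be technical.

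The mesothelium is the flat epithelium that covers the pancreas and the other organs of the body cavities. Wt1 encodes a zinc finger transcription factor of the mesothelium, also made by kidney podocytes, gonadal cells and some mesenchymal cells near the mesothelium. The other members encode proteins of the cell surface: Msln encodes mesothelin, a GPI-anchored protein, and Muc16 the membrane mucin that binds it. Upk3b and Upk1b encode uroplakins, membrane proteins best known from the urothelium that are also made by mesothelial cells, and Lrrn4 encodes a membrane protein with leucine-rich repeats.

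On GRCm38, Wt1 lies at chr2:105126529-105173616 and Lrrn4 at chr2:132868305-132880891, while Msln lies at chr17:25748614-25754327, Upk3b at chr5:136038496-136045303 and Upk1b at chr16:38773184-38800203, as the tables give these spans. All 5 are protein-coding genes with the same identifier in the GENCODE annotation of that build. The row named Muc16 spans chr9:18495455-18512885, whereas the annotated gene spans chr9:18495455-18674530. The Muc16 value was therefore measured against a short older gene model at the 3′ end of the gene and is uncertain as a level of the whole transcript. No other row overlapped a member's span.

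RefSeq promoter windows for GRCm38.p6 matched 3 of the 6 members, Lrrn4, Upk3b and Muc16. The window taken was the 250 bases before the RefSeq start, which for Lrrn4 lies inside the span given above. The Lrrn4 and Upk3b windows are shown because they hold the hexamer searched; the Muc16 window, far from the measured row, does not. Capitals mark GGAATG or its reverse complement CATTCC, the hexamer recognised by TEAD transcription factors, read on both strands. The Lrrn4 window lies at chr2:132880863-132881112 on the minus strand and the Upk3b window at chr5:136038246-136038495 on the plus strand.
Lrrn4: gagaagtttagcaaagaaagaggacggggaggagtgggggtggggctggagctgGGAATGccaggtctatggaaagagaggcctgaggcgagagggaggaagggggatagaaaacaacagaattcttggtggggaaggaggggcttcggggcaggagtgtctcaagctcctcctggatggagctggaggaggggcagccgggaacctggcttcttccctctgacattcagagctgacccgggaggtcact
Upk3b: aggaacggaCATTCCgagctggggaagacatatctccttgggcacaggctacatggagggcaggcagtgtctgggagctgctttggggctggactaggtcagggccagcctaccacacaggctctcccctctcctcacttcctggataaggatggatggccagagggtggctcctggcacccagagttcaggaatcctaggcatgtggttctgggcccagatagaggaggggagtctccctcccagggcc
The last base of the hexamer lay 191 bases before the RefSeq start of Lrrn4 and 236 bases before that of Upk3b. The hexamer stood in 2 of the 3 member windows and in 12.6% of 32851 windows of the same length, so a match in any 1 window is common. GCGTGGG, a motif of WT1 and EGR factors, was in 0 of the 3 windows and in 4.3% of all windows. AGATAA, a motif of GATA factors, was in 0 of the 3 and in 9.99% of all windows.

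Levels are FPKM, fragments mapped to a gene scaled by the length of its transcript and by the mapped fragments of the library, so genes can be compared per length. Between 17476 and 20918 genes were above 0 in a library. The 3 most abundant features held 38.2 to 58.2% of all FPKM in the H19DMD table and 60.5 to 82.5% in the Igf2 table. The depth in reads is unknown. Because the tables were normalized separately, levels from both are set side by side without a test. The labels of the YFP+ mutants were checked at the targeted locus: Igf2 was 3849 ± 189 FPKM (SD, n = 3) in controls and 7040 ± 800 (SD, n = 4) in mutants, and H19 was 2446 ± 8.11 and 700 ± 123.

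All 6 mesothelial genes were higher in YFP+ than in YFP- cells of the H19DMD model, by 15.8-fold to 124-fold in the ratio of mean FPKM over 7 libraries of each fraction. Wt1 stood farthest apart and Msln least far. The ratio of 3 genes rested on YFP- control replicate 1: without it Wt1 was 256-fold, Lrrn4 74.4-fold and Muc16 88.3-fold higher, where with it they were 124-fold, 38.1-fold and 51.5-fold. In YFP- cells of either model the highest single value of any member was 3.95 FPKM. Which cells within a sorted fraction made the RNA cannot be read from a bulk library, and more cells of a type and more RNA per cell cannot be told apart.

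**Figure D1:**
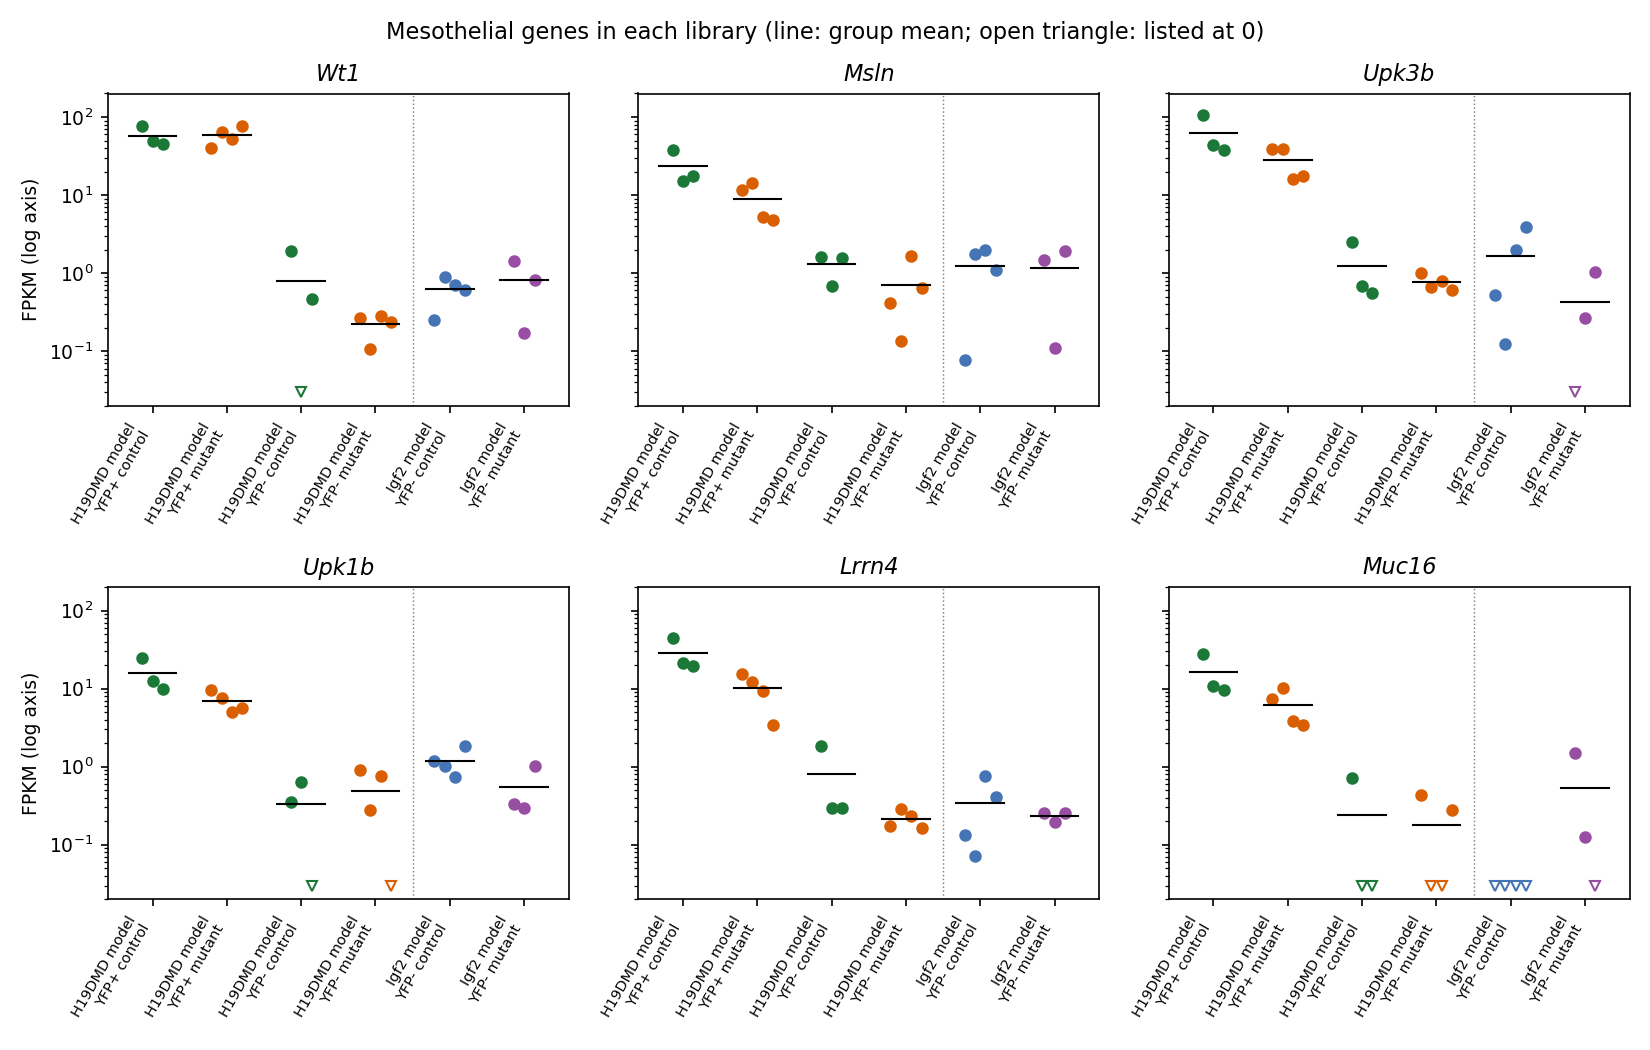
FPKM of each mesothelial gene (log axis) in every library of the 6 groups, with a line at the group mean and an open triangle for a library listed at 0. All 7 YFP+ libraries of the H19DMD model lie above all YFP- libraries of both models for each gene, and Wt1 alone has similar means in YFP+ controls and mutants.

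Wt1 was 76.5, 49.0 and 45.7 FPKM in the YFP+ controls and 40.2, 65.0, 52.9 and 75.9 in the YFP+ mutants. In the YFP- cells it was 1.92, 0 and 0.464 in controls and 0.267, 0.105, 0.281 and 0.239 in mutants. Every YFP+ library was thus far above every YFP- library, with no overlap. Limma on log2(FPKM + 1), adjusted over 17105 genes, gave a difference of 5.38 ± 0.23 (SE; adjusted p = 4.76e-10).

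Upk3b was 105, 43.2 and 37.5 FPKM in the YFP+ controls and 38.8, 39.4, 15.97 and 17.7 in the YFP+ mutants. In the YFP- cells Upk3b was 2.51, 0.690 and 0.549 in controls and 0.992, 0.658, 0.783 and 0.611 in mutants. The lowest YFP+ library was still well above the highest YFP- library. The limma difference of Upk3b was 4.28 ± 0.31 (SE; adjusted p = 7.06e-08), and the ratio of means was 43.8.

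Upk1b, the second uroplakin, was lower throughout, at 25.0, 12.5 and 9.78 FPKM in the YFP+ controls and 9.71, 7.56, 4.98 and 5.69 in the YFP+ mutants. Its YFP- values were 0.355, 0.632 and 0 in controls and 0.897, 0.275, 0.750 and 0 in mutants, below every YFP+ value. The limma difference was 2.93 ± 0.28 (SE; adjusted p = 1.33e-06), a 25.9-fold ratio of means. The uroplakins that partner them in urothelium were hardly measured: Upk1a, Upk2, Upk3a and the neighbour Upk3bl together reached at most 2.18 FPKM in any YFP+ library, and Upk2 was listed at 0 in all of them.

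Msln was 37.9, 14.9 and 17.7 FPKM in the YFP+ controls and 11.5, 14.3, 5.25 and 4.85 in the YFP+ mutants. In YFP- cells Msln was 1.63, 0.689 and 1.55 in controls and 0.414, 0.135, 1.66 and 0.642 in mutants. The fractions did not overlap, although Msln had the highest YFP- level relative to YFP+, 6.31%. Its limma difference was 2.85 ± 0.31 (SE; adjusted p = 4.77e-06). Mslnl, a related gene, was at most 0.801 FPKM in YFP+ cells.

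Muc16, the mesothelin-binding mucin, was 28.1, 10.8 and 9.72 FPKM in the YFP+ controls and 7.37, 10.3, 3.87 and 3.38 in the YFP+ mutants. It was listed at 0.715, 0 and 0 in the YFP- controls and at 0.437, 0, 0 and 0.277 in the YFP- mutants. All YFP+ values were above these, and the limma difference was 3.03 ± 0.32 (SE; adjusted p = 3.88e-06). Other membrane mucins of epithelia ran the other way: of 5 listed, 3 could be tested and all 3 were called lower in YFP+ cells, as were 19.4% of all genes tested. Muc1 was 5.44 FPKM on average in YFP+ cells against 107 in YFP- cells (limma difference -4.06 ± 0.19, SE; adjusted p = 8.65e-10).

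Lrrn4 was 44.6, 21.3 and 19.2 FPKM in the YFP+ controls and 15.5, 12.2, 9.29 and 3.45 in the YFP+ mutants. In YFP- cells Lrrn4 was 1.85, 0.295 and 0.294 in controls and 0.175, 0.285, 0.232 and 0.165 in mutants. The lowest YFP+ value, in mutant replicate 4, remained above the highest YFP- value, in control replicate 1. The limma difference was 3.46 ± 0.33 (SE; adjusted p = 1.16e-06). Its relative Lrrn1 was lower in YFP+ cells, 1.18 against 23.6 FPKM (limma difference -3.49 ± 0.17, SE; adjusted p = 1.58e-09). Lrrn2 and Lrrn3 were below the filter of that fit: Lrrn2 averaged 1.19 and 1.27 FPKM in the YFP+ controls and mutants and 0.628 and 0.790 in the YFP- groups, and Lrrn3 was at most 0.843 on average in each of the 4 groups.

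In this comparison of the fractions over both genotypes, 6 of 6 members were called higher by limma at an adjusted p below 0.05, where 20.3% of all genes tested were called higher. The members' median log2 difference was 3.24, against 0.01 over all genes. All 6 were also without overlap between fractions, as were 10.4% of all genes in that direction. The YFP- means of the members were 0.204 to 0.970 FPKM, so they passed the filter of 1 FPKM through the YFP+ cells alone. A gene that enters in this way can only have the higher mean in YFP+ cells. The shares over all genes are therefore not a like-for-like background for the members. For each member the two-sided exact permutation p, relabelling fractions within genotype, was 0.00143, the smallest that 1400 relabellings allow.

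Within controls alone, 3 libraries against 3, all 6 were called higher by limma with adjusted p from 0.000738 to 0.00300, where 12.4% of genes were called higher and 22.4% were higher without overlap. The smallest two-sided exact permutation p in that design is 0.1, which each member reached. Within mutants alone, 4 against 4, all 6 were called higher with adjusted p from 2.41e-06 to 0.00241, where 13.5% of genes were called higher and 14.4% were higher without overlap. Each had an exact permutation p of 0.0286, the smallest possible there. The members' median log2 difference was 3.86 in controls and 2.78 in mutants. The YFP- mean was again below 1 FPKM for Wt1, Upk1b, Lrrn4 and Muc16 in controls and for all 6 in mutants. The same limit thus holds for these shares.

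**Figure D2:**
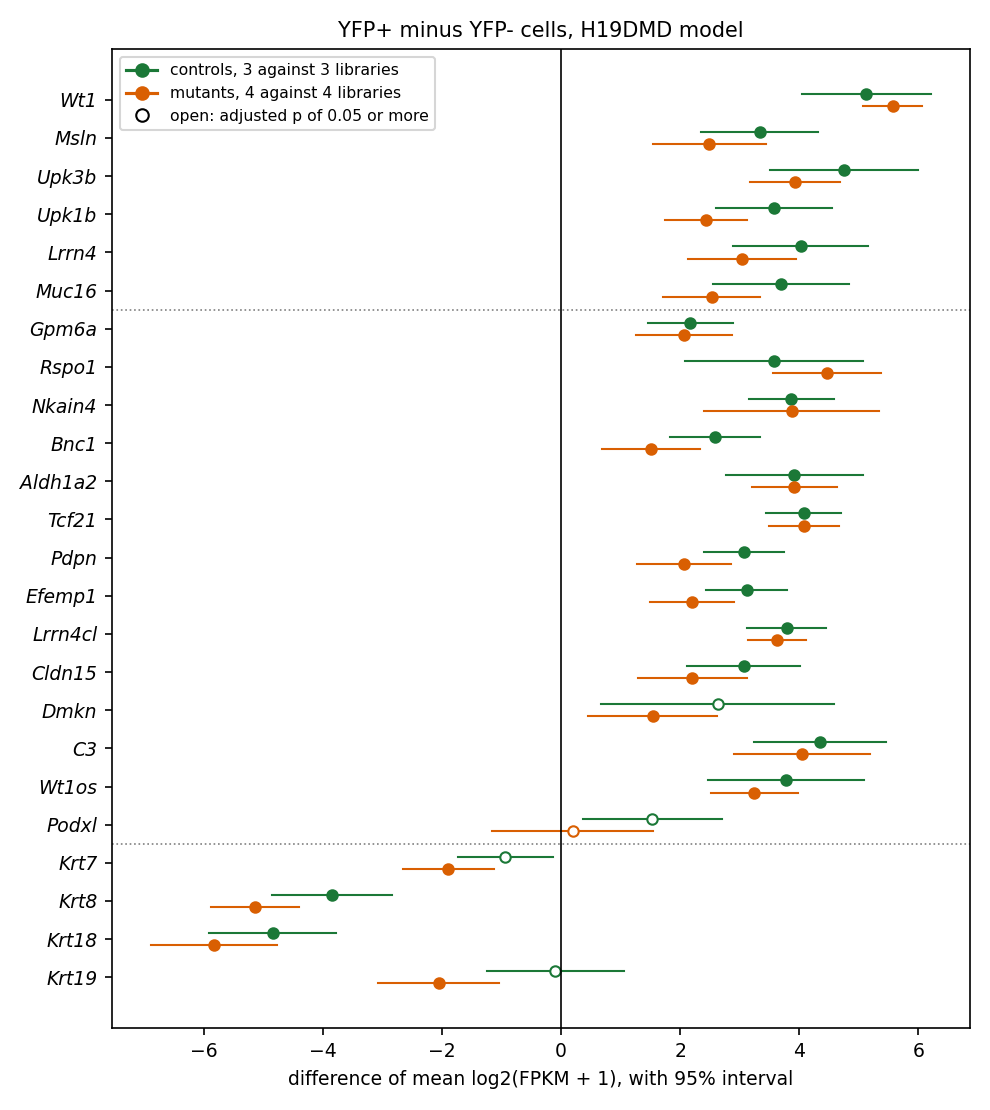
Difference of mean log2(FPKM + 1) between YFP+ and YFP- cells with 95% intervals, in controls (3 against 3 libraries) and mutants (4 against 4), for the 6 members, 14 other mesothelial-associated genes and 4 keratins; filled points passed an adjusted p of 0.05 by limma. Every member lies right of 0 in both genotypes, while Krt8 and Krt18 lie left of 0.

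Ordered by mean level in the YFP+ controls, Upk3b (61.8 ± 37.3 FPKM) and Wt1 (57.1 ± 16.9) came first, followed by Lrrn4 (28.4 ± 14.1), Msln (23.5 ± 12.6), Muc16 (16.2 ± 10.3) and Upk1b (15.8 ± 8.12; SD, n = 3). The lowest Wt1 value, 45.7, was just above the highest Lrrn4 value, 44.6, and the other neighbours in this order had overlapping ranges. In the YFP+ mutants Wt1 was first at 58.5 ± 15.4 FPKM, above Upk3b at 28.0 ± 12.9, with Lrrn4 at 10.1 ± 5.12, Msln at 8.98 ± 4.68, Upk1b at 6.98 ± 2.12 and Muc16 at 6.23 ± 3.25 (SD, n = 4). There Wt1 lay above Upk3b, and Upk3b just above Lrrn4, without overlap, and the other neighbours overlapped.

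The YFP- cells of the H19DMD model held a small share of the YFP+ level of each member. In controls this share was 1.39% for Wt1, 1.47% for Muc16, 2.02% for Upk3b, 2.09% for Upk1b, 2.87% for Lrrn4 and 5.49% for Msln. In mutants it was 0.381% for Wt1, 2.12% for Lrrn4, 2.72% for Upk3b, 2.87% for Muc16, 6.88% for Upk1b and 7.92% for Msln. Wt1 was lowest and Msln highest in both genotypes, and the order of the other 4 changed. The place of Wt1 in controls rested on YFP- replicate 1. In replicates 2 and 3 Muc16 was listed at 0, where Wt1 was 0 and 0.464 FPKM, so without replicate 1 Muc16 was lowest. The place of Msln in mutants leaned on YFP- replicate 3, at 1.66 FPKM against 0.135 to 0.642 in the other mutants. The median over the 6 members was 2.05% in controls and 2.79% in mutants. Mesenchymal markers, such as collagens and Pdgfra, had medians of 0.924% over 8 genes in controls and 1.39% over 9 genes in mutants. YFP- control replicate 1 had the highest value of that group for every member except Upk1b. Without that library, an alternative added after the data were seen, the control median was 1.02% for the members and 0.680% for the mesenchymal markers. Whether the low YFP- values come from YFP+ cells in the YFP- gate was not tested.

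In the Igf2 model, where YFP- cells alone were analysed, each member was at most 3.95 FPKM in any library. Wt1 was 0.253, 0.903, 0.712 and 0.607 FPKM in controls and 1.43, 0.169 and 0.816 in mutants. Upk3b was 0.528, 0.123, 1.96 and 3.95 in controls and 0, 0.268 and 1.02 in mutants. Muc16 was listed at 0 in the 4 controls and at 1.49, 0.126 and 0 in the mutants.

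The remaining 3 members showed the same low range in the YFP- cells of the Igf2 model. Msln was 0.0777, 1.73, 1.98 and 1.09 FPKM in controls and 1.46, 0.110 and 1.91 in mutants. Upk1b was 1.195, 1.03, 0.732 and 1.82 in controls and 0.330, 0.292 and 1.01 in mutants. Lrrn4 was 0.132, 0.0710, 0.754 and 0.409 in controls and 0.253, 0.198 and 0.254 in mutants. Controls and mutants overlapped for every one of the 6 genes, where 6.02% of all genes tested did not.

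The members were then read against other genes associated with the mesothelium. Of 16 such genes, 14 reached the mean of 1 FPKM required for the test, and 13 of these were called higher in YFP+ cells and 0 lower, where 20.3% of all genes were called higher and 19.4% lower, with a median log2 difference of 3.03. All 8 mesenchymal markers tested were also called higher in this comparison. A higher level in YFP+ cells therefore does not tell a mesothelial from a mesenchymal source. The 8 most abundant of the mesothelial-associated genes are given here. C3, a complement component, was 233 FPKM on average in YFP+ cells and 10.99 in YFP- cells, and Efemp1, an extracellular matrix protein, was 62.8 and 9.42. Nkain4 was 51.4 against 3.02, and Rspo1, a secreted activator of Wnt signalling, 30.5 against 1.10.

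Aldh1a2, an enzyme that makes retinoic acid, was 29.4 FPKM on average in YFP+ cells and 1.09 in YFP- cells. Lrrn4cl was 25.3 against 1.06, and Pdpn, the membrane glycoprotein podoplanin, 19.5 against 2.74. Podxl, which encodes podocalyxin and is also made by blood vessels, was the 1 tested gene not called, at 19.4 against 8.84 (limma difference 0.77 ± 0.44, SE; adjusted p = 0.191). The 2 genes below the filter were Tbx18 and Calb2. Calb2, which encodes calretinin, a protein used to identify mesothelial cells, was listed at 0 in all 7 YFP+ libraries.

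The simple keratins that mesothelium shares with ductal epithelium did not follow the members. All 4 were called lower in YFP+ cells over both genotypes, with a median log2 difference of -3.03, where 19.4% of all genes were called lower. Krt8 was 3.73 FPKM in YFP+ and 110 in YFP- cells, and Krt18 was 3.56 and 178. Krt19 was closer, 28.4 against 54.8 FPKM. In controls alone it was 44.2 against 43.7 (limma difference -0.09 ± 0.47, SE; adjusted p = 0.913; 95% interval -1.24 to 1.05), and in mutants alone 16.5 against 63.2 (-2.06 ± 0.44, SE; limma adjusted p = 0.00923). The interaction for Krt19 did not pass the adjusted threshold (limma unadjusted p = 0.0147; adjusted p = 0.755).

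Markers of other organs and cell types, only some of which make Wt1, were also read in the YFP+ libraries. The podocyte gene Nphs1 was at most 3.46 FPKM, and the kidney tubule genes Umod and Slc12a1 were listed at 0 in all 7. Of the genes of the adrenal cortex and gonad, Nr5a1 was listed at 0 in all 7, whereas Star, the most abundant of that list, was 0.685 to 2.84 FPKM. Nkx2-5, a marker of the splenic mesenchyme, was listed at 0 in all 7. Tlx1, the other splenic marker, was 0.583 to 4.60 FPKM. Over both genotypes Tlx1 was called higher in YFP+ cells, at 2.04 against 0.00979 FPKM on average (limma difference 1.45 ± 0.29, SE, adjusted p = 0.00109). Nphs1 and the adrenal and gonadal gene Cyp11a1 were called lower (limma adjusted p = 0.00791 and 3.79e-08), and Star was not called.

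The mesenchymal markers were far more abundant than the members in the same fraction. The 9 listed, collagens and Pdgfra among them, summed to 4308 to 5083 FPKM in the YFP+ controls and 3856 to 5163 in the mutants. The 6 members summed to 140 to 317 and 92.2 to 149 FPKM. The labelled mesenchymal fraction thus held the defining genes of that cell type, beside a lower summed level of the members. Nkx3-2, whose locus drives the Cre, was at most 1.99 FPKM and was listed at 0 in 2 of the 7 YFP+ libraries.

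Deletion at H19DMD was then compared with control within the YFP+ cells. Msln, Upk3b, Upk1b, Lrrn4 and Muc16 each had a lower mean in mutants, at 0.356 to 0.452 of the control mean, while Wt1 was at 1.02 of it. None of the 6 passed the adjusted threshold. At the targeted locus Igf2 did not pass it either, although its groups did not overlap and its mutant mean was 1.83 of the control mean. Its limma difference was 0.87 ± 0.21 (SE, unadjusted p = 0.00420, adjusted p = 0.927). H19 was called, at -1.82 ± 0.19 (SE, limma adjusted p = 0.0458). A change of the size seen for Igf2 could thus go uncalled in this fit. Limma called 11 of 15856 genes in either direction, 0.0694% of those tested, and 4.76% had an unadjusted p below 0.05. Among the members, 4 of 6 were below that unadjusted value. The 5 members other than Wt1 varied together over these libraries, with Pearson's r from 0.895 to 0.987. They therefore do not count as separate observations against the share over all genes.

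Lrrn4 had the lowest mutant-to-control ratio. The 4 mutants, at 3.45 to 15.5 FPKM, lay below the 3 controls, at 19.2 to 44.6, without overlap. The limma difference was -1.46 ± 0.51 (SE; unadjusted p = 0.0236; adjusted p = 0.927), and the two-sided exact permutation p was 0.0571 where 0.0286 is the smallest possible.

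Msln mutants, at 4.85 to 14.3 FPKM, were likewise all below the controls, at 14.9 to 37.9, though the nearest pair was close. The limma difference was -1.31 ± 0.47 (SE; unadjusted p = 0.0268; adjusted p = 0.927; exact permutation p = 0.0571). Upk1b mutants, at 4.98 to 9.71, were just below the lowest control, 9.78, with a difference of -1.001 ± 0.36 (SE; unadjusted p = 0.0266; adjusted p = 0.927; exact permutation p = 0.0571). These 3 of 6 members were the ones without overlap in the lower direction, where 3.77% of all genes tested had none. As these genes varied together, they are not 3 separate observations.

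Upk3b and Muc16 had similar differences with some overlap. Upk3b mutants reached 39.4 FPKM, above control replicate 3 at 37.5, with a limma difference of -1.08 ± 0.48 (SE; adjusted p = 0.927; exact permutation p = 0.171). Muc16 mutants reached 10.3, above control replicate 3 at 9.72, with a difference of -1.21 ± 0.48 (SE; adjusted p = 0.927; exact permutation p = 0.0857). The median difference over all genes was -0.07.

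Wt1 gave 0.03 ± 0.28 (SE) in the same fit, with a 95% interval from -0.63 to 0.70 (limma adjusted p = 0.993; exact permutation p = 0.943). Its highest mutant, 75.9 FPKM, and its highest control, 76.5, were close together. The sign of the small Wt1 difference changed when any 1 of 4 libraries was left out, so no direction is given for it.

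YFP+ control replicate 1 was the highest control for all 6 genes. Without it the limma differences were -0.63 for Upk3b, -0.63 for Upk1b, -0.75 for Muc16, -0.91 for Msln and -1.09 for Lrrn4, and the adjusted p was 0.983. The first 3 thereby shrank by more than 1.5 times. Wt1 was 0.26 without that library.

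**Figure D3:**
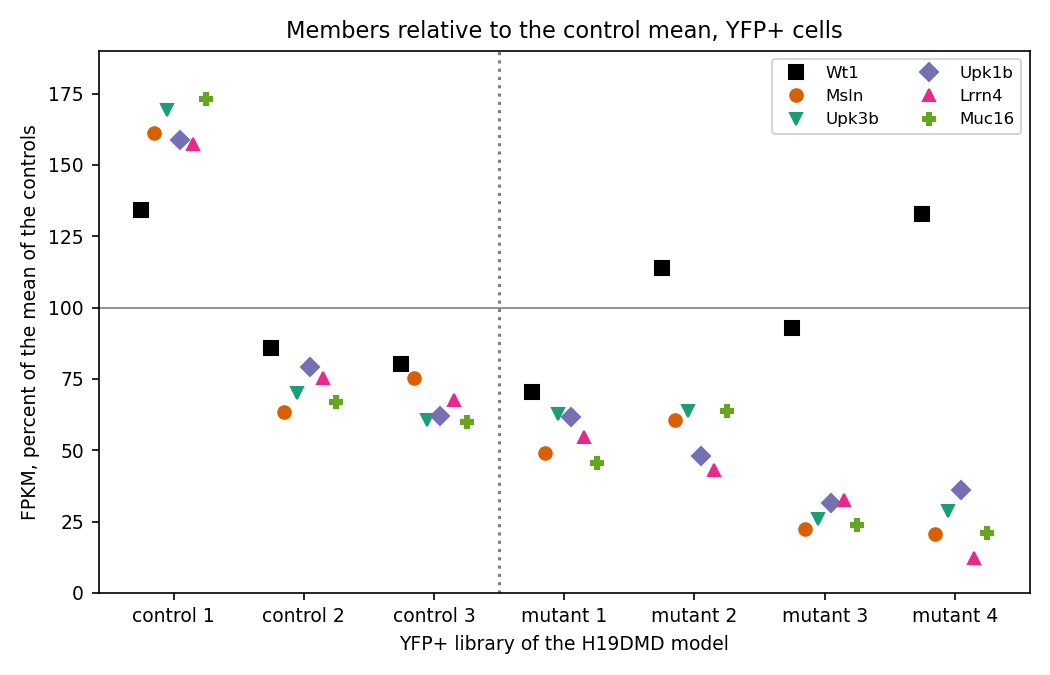
FPKM of the 6 members in each YFP+ library of the H19DMD model as percent of the mean of the 3 controls (horizontal line at 100). The 5 surface genes sit at 157 to 173% in control replicate 1 and at 12.1 to 36.1% in mutant replicates 3 and 4, where Wt1 is at 92.7 and 133%.

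The 5 surface genes varied together from library to library, and Wt1 did not vary with them. Across the 7 YFP+ libraries, the 10 pairs among Msln, Upk3b, Upk1b, Lrrn4 and Muc16 had Pearson's r of log2(FPKM + 1) from 0.895 to 0.987. The 5 pairs with Wt1 had r from -0.15 to 0.172. With group means subtracted, the ranges were 0.759 to 0.976 and -0.17 to 0.294. These are descriptions over 7 libraries that share 1 table and its scaling.

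Expressed relative to Wt1, Upk3b was 1.37, 0.883 and 0.821 in the controls and 0.967, 0.606, 0.302 and 0.233 in the mutants. The ratio of Lrrn4 to Wt1 was 0.583, 0.435 and 0.420 in the controls and 0.386, 0.187, 0.176 and 0.0454 in the mutants. Mutant replicate 4 combined the highest mutant Wt1 with the lowest Lrrn4, Msln and Muc16. Mutant replicate 1 had the lowest Wt1 of all 7 libraries and the highest mutant Lrrn4 and Upk1b.

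**Figure D4:**
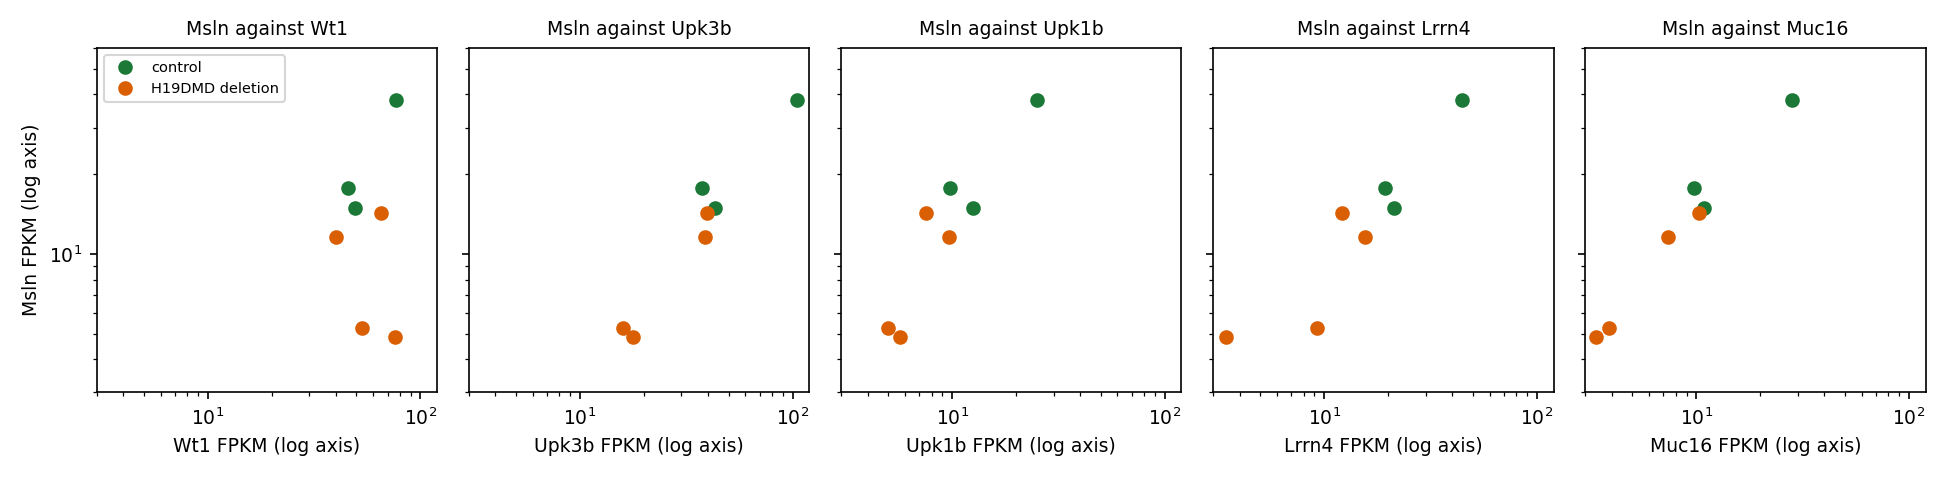
Msln against each other member in the 7 YFP+ libraries of the H19DMD model (FPKM, log axes; green controls, orange mutants). Msln runs along a line with Upk3b, Upk1b, Lrrn4 and Muc16, whereas libraries with Wt1 between 40.2 and 76.5 FPKM take any Msln value.

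Among the other mesothelial-associated genes in YFP+ cells, 0 of 14 tested were called between mutants and controls, 13 had a difference below 0, and the median was -0.54. Bnc1, a zinc finger transcription factor of mesothelium named here after its values were seen, was the 1 gene with an unadjusted p below 0.05: 5.32 ± 1.94 FPKM in controls (SD, n = 3) and 2.06 ± 1.13 in mutants (SD, n = 4), a limma difference of -1.09 ± 0.40 (SE; adjusted p = 0.927). Lrrn4cl was the 1 gene above 0, at 0.22. Against the mean of the 5 surface genes over the 7 libraries, r was 0.946 for Aldh1a2, 0.908 for Bnc1 and 0.803 for C3, but -0.19 for Lrrn4cl and -0.10 for Wt1os. With group means subtracted it was 0.978 for Aldh1a2, 0.791 for Bnc1, 0.768 for C3, 0.359 for Lrrn4cl and -0.70 for Wt1os, so the sign for Lrrn4cl changed.

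Wt1os, the noncoding gene divergent from Wt1 that the tables list under a clone name, was matched by its identifier. It averaged 14.04 FPKM in YFP+ cells and 0.216 in YFP- cells, a limma difference of 3.47 ± 0.30 (SE; adjusted p = 4.48e-07). Its span lies beside that of Wt1 and does not overlap it.

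Markers of other cell types were read in the same YFP+ groups. None of those tested was called by limma between mutants and controls. Gcg, which encodes glucagon, was the 1 with an unadjusted p below 0.05 (0.0490; limma adjusted p = 0.927). The 7 ductal genes summed to 35.9 to 80.9 FPKM in controls and 14.9 to 34.5 in mutants, without overlap, with Krt19 the most abundant at 44.2 and 16.5 on average. The 4 pericyte and smooth muscle genes summed to 432 to 716 and 120 to 631 FPKM, the 5 endocrine genes to 52.4 to 204 and 30.5 to 117, and the 4 leukocyte genes to 15.1 to 27.2 and 19.9 to 68.2. The 4 endothelial genes summed to 41.9 to 54.4 and 21.5 to 90.8 FPKM, and the 6 acinar genes to 583 to 1307 and 530 to 1671. The other 5 sums overlapped between the groups.

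Within the pericyte and smooth muscle list the genes did not run one way. Acta2, which encodes smooth muscle actin, averaged 373 FPKM in controls and 159 in mutants, and Myh11, a smooth muscle myosin, 114 and 63.1. Rgs5, a pericyte marker, averaged 119 and 137, and Cspg4 6.80 and 6.14. Over the 7 YFP+ libraries the mean of the 5 surface genes had r of 0.869 with Acta2 and 0.692 with Myh11, but -0.09 with Rgs5 and 0.0973 with Cspg4.

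For the keratins the same r was 0.946 with Krt8, 0.875 with Krt19, 0.710 with Krt18 and 0.660 with Krt7. Over the 9 mesenchymal markers it ran from -0.65 for Pdgfra to 0.510 for Col3a1. With group means subtracted, Acta2 was at 0.759, Myh11 at 0.594 and Cspg4 at -0.11, and the keratins ran from 0.477 for Krt7 to 0.961 for Krt8. The mesenchymal markers then ran from -0.48 for Pdgfra to 0.683 for Nkx3-2, with Col3a1 at 0.0888. The part of these other cells in the differences between the YFP+ groups was not tested.

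**Figure D5:**
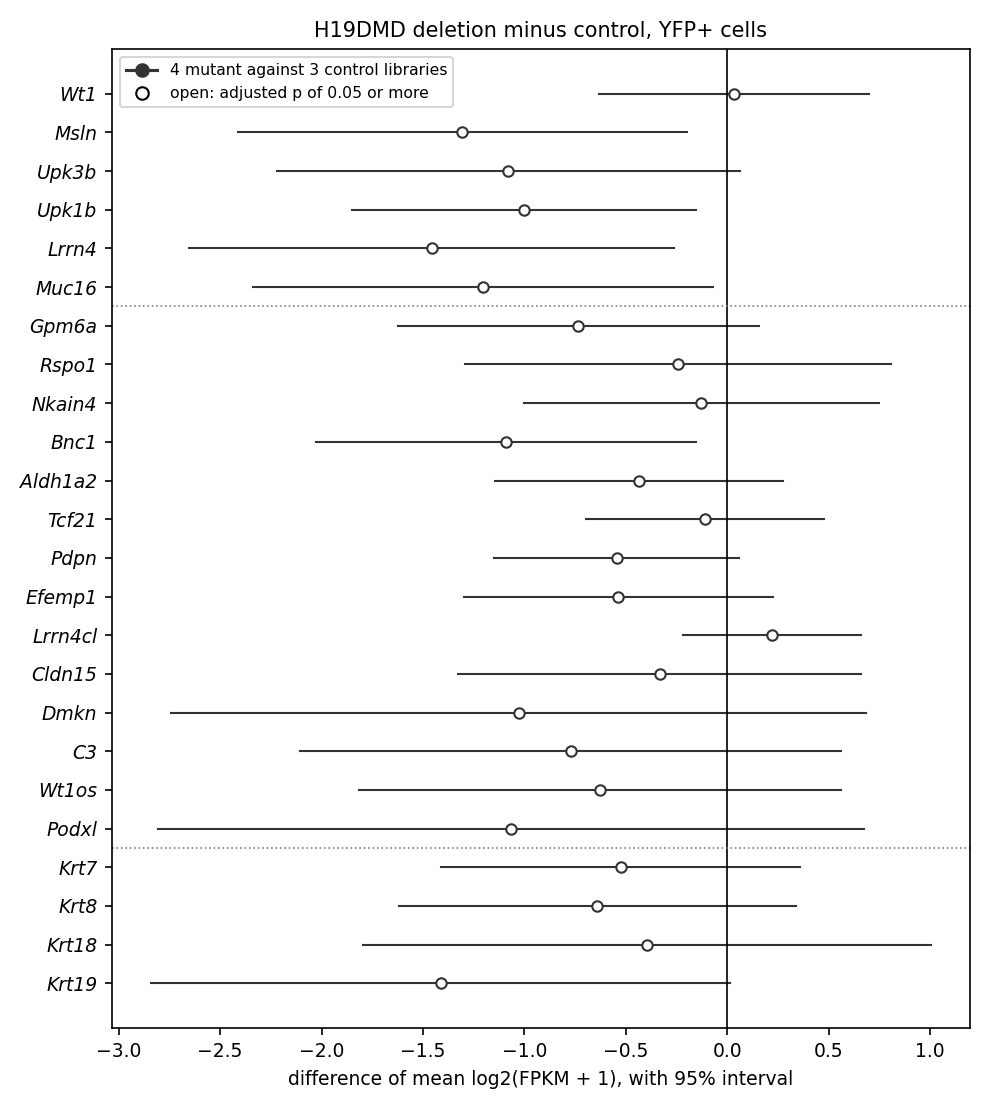
Difference of mean log2(FPKM + 1) between H19DMD mutants (n = 4) and controls (n = 3) in YFP+ cells, with 95% intervals, for the members, 14 other mesothelial-associated genes and 4 keratins; all points are open because none passed an adjusted p of 0.05 by limma. The 5 surface genes lie between -1.46 and -1.001 and Wt1 at 0.03.

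In the YFP- cells of the H19DMD model no member reached a mean of 1 FPKM over the 7 libraries, so none entered the limma fit, which called 0.0677% of genes. Lrrn4 was the 1 member whose groups did not overlap, at 0.294 to 1.85 FPKM in controls and 0.165 to 0.285 in mutants, where 5.68% of tested genes had no overlap in either direction. Its two-sided exact permutation p was 0.0286, the smallest possible, and the other 5 had exact p from 0.229 to 1.0, none adjusted for the 6 genes. In the YFP- cells of the Igf2 model, Msln and Upk3b entered the fit and 0 of 2 were called or had an unadjusted p below 0.05, where 0.0631% of genes were called. Their differences were -0.05 ± 0.54 and -0.71 ± 0.62 (SE; limma adjusted p = 0.994 and 0.919).

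The dependence of the deletion's difference on the fraction was tested by an interaction term. No member passed it, 1 of 6 had an unadjusted p below 0.05, and limma called 0.0117% of 17105 genes. Upk1b came nearest, at -1.14 with a 95% interval from -2.21 to -0.07 (limma unadjusted p = 0.0380; adjusted p = 0.755). Wt1 was at 0.44, with an interval from -0.57 to 1.46 (limma adjusted p = 0.885). The median over all genes was -0.11. The members passed the filter of this fit through the YFP+ groups alone, and with YFP- group means of 0.179 to 1.29 FPKM the term rests largely on the YFP+ differences given above, so it adds little to them.

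The genes whose levels were most like the members' mean over the 14 libraries of the H19DMD model, among 12580 protein-coding genes, were Tnfrsf11b (r = 0.990), Fmod (0.986), Ildr2 (0.985), Igfbp5 (0.984) and Sulf1 (0.983). Tnfrsf11b encodes osteoprotegerin, a secreted decoy receptor, and was 9.21 FPKM on average in YFP+ controls, 5.92 in YFP+ mutants and at most 0.201 on average in the YFP- groups. Igfbp5, an IGF-binding protein, was 153 and 117 FPKM in the YFP+ groups and 10.6 and 10.9 in the YFP- groups. Most of this likeness is the difference between fractions, which all 14 libraries share.

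With the 4 group means subtracted, the most alike were Egfl6 (r = 0.926), Ifltd1 (0.862), Tnfrsf11b (0.851), Rpp25 (0.850) and Akap17b (0.848). These are the highest of 12580 candidates over 14 libraries. How high r would run for unrelated genes in such a search was not tested. Tnfrsf11b was the 1 gene named by both measures. Egfl6, a secreted protein with EGF-like repeats, was 8.49 FPKM in YFP+ controls, 5.51 in YFP+ mutants, and 2.84 and 2.45 in the YFP- groups. Akap17b was higher in YFP- cells, at 9.33 and 8.55 FPKM against 3.43 and 1.86, so it followed the libraries within groups and not the fraction.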

How the data were processed

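The authors deposited 1 table of FPKM values per model. Per the submitters' processing notes, TopHat2 2.0.8, Cufflinks 2.2.1 and GRCm38 were named; per the labels' protocols, RNA was amplified with a whole-transcriptome kit before library preparation; technical noise in low values was not measured. Strand use is not given in the sources used here, and depth is unknown. The 8 columns without values were not used.

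The members and the 16 gene lists were chosen with earlier results of these data known. Members are named in every comparison; of other lists, at most 8 genes with the highest mean, of the likeness ranking the first 5, and others where marked. Samples were grouped by genotype and fraction labels. Within each comparison, genes averaging 1 FPKM or more were fitted as log2(FPKM + 1) with limma 3.58.1 (variance trend) in R 4.3.3, with Benjamini-Hochberg adjustment over all genes tested and a threshold of 0.05. Fraction differences over both genotypes included genotype as a term. Fold changes on this scale understate the change of low genes. Exact permutation tests were two-sided, on the mean log2 difference, without adjustment. The fit was also run on simulated data, but the outcome is not reported here and no result relies on it. Alternatives were a pseudocount of 0.1, no filter, median-ratio scaling, protein-coding genes, transcripts of at least 200 bases, all groups in 1 fit, a replicate block, no trend, and leaving out each library.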

Additional observations from a re-analysis of the deposited data

How the results depend on the processing

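In the fraction comparisons, the count of members called higher was 6 under each alternative run, except with protein-coding genes alone and with transcripts of at least 200 bases alone, where it was 5 because the identifier of the Muc16 row is absent from the annotation. In the genotype comparisons and the interaction the count was 0 under each alternative. Median-ratio scaling moved the median log2 difference of all genes from 0.08 to -0.04 in controls between fractions and from -0.11 to -0.00480 for the interaction, by more than 0.1. The direction of every member's fraction difference was the same under it. In YFP+ cells the Wt1 difference between genotypes reversed to -0.06 without control replicate 2, -0.10 without control replicate 3, -0.03 without mutant replicate 2 and -0.10 without mutant replicate 4, within a leave-one-out range of -0.10 to 0.26. In YFP- cells of the Igf2 model the Msln difference reversed to 0.08, 0.12 and 0.37 without control replicates 2 and 3 and mutant replicate 2, within a range of -0.37 to 0.37. The cause was not tested. The labels give the groups shared replicate numbers, and deviations of same-numbered libraries from their group means correlated by -0.05 to 0.0679. Between YFP+ and YFP- libraries of the same genotype, each such value was above 0. They were 0.0171 to 0.0679 in controls and 0.00758 to 0.0416 in mutants. Differently numbered pairs of these libraries ran from -0.0519 to 0.0319. These small values do not settle whether the numbers pair the libraries, so the main fit did not pair them. With the replicate block, 6 members were called in the fractions and 0 between genotypes, and the Wt1 difference in YFP+ cells was -0.10. Over all genes, the genotype calls in YFP+ cells went from 11 to 0 with protein-coding genes, 1 with transcripts of at least 200 bases, 5 with all groups in 1 fit, 7 with the block, and up to 27 with a library left out. In YFP- cells the 11 calls became 0 to 34 in the H19DMD model and 0 to 37 in the Igf2 model, and the 2 interaction calls became 0 to 9. All groups in 1 fit was not run for the Igf2 table, which has 2 groups, or for the interaction, which already holds all groups. By Dixon's criterion no library lay far from the rest in the 17 sets tested, each 1 member in 1 group of 4 libraries; groups of 3, the YFP+ controls among them, were not tested.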
